A study of Sus scrofa with 4 samples.

Results

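The transcripts of the polyamine pathway were followed in porcine M II oocytes, which are oocytes arrested at metaphase of the second meiotic division, after maturation with or without inhibition of the deacylase SIRT6. The genes were those among AZIN1, ODC1, OAZ1, OAZ2, AMD1, SRM, SMS and SAT1 that the count table lists. Of these 8 genes, 5 were found among the 4381 listed gene symbols (AZIN1, ODC1, OAZ1, OAZ2 and SAT1), while AMD1, SRM and SMS were not analysed here. AZIN1 was chosen by its own values in these libraries, so its levels and its difference between the groups are a description and carry no test. The other genes were named for their role in the pathway.

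The control group and the SIRT6-inhibited group each had 2 RNA-seq libraries, here called C1 and C2 for the controls and S1 and S2 for the SIRT6-inhibited oocytes. Cumulus-oocyte complexes aspirated from the ovaries of slaughtered pigs were matured in vitro for 42 to 44 h to M II, with 100 μM SIRT6-IN-1, a small-molecule inhibitor of SIRT6 activity, in the SIRT6-inhibited group and without it in the controls. Whether the controls received the solvent of the inhibitor is not given in the sources used here. The study collected 100 oocytes per group and did not say how many entered each library. Smart-seq2, which amplifies cDNA from little RNA, is named in the labels beside a library kit that fragments RNA and primes it at random, while the methods of the study name the kit alone. Nothing says that the libraries came from separate cultures, so the p-values measure only the spread between these libraries, which may be technical.

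Polyamines are small, positively charged molecules that bind nucleic acids and are needed for growth and for translation. ODC1, ornithine decarboxylase, makes putrescine from ornithine in the rate-limiting step, and its amount is set largely after transcription. Antizymes, encoded by OAZ1 and OAZ2, are made through a ribosomal frameshift that polyamines favour; they bind ornithine decarboxylase, deliver it to the proteasome without ubiquitin, and restrain polyamine uptake. AZIN1, antizyme inhibitor 1, resembles ornithine decarboxylase but does not decarboxylate ornithine, and it binds antizyme and thereby frees the enzyme. SAT1 acetylates spermidine and spermine for breakdown or export.

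On the listed genes, C1 held 4646129 counts, C2 held 3405960, S1 held 3239200 and S2 held 4972602. These sums are over the listed genes and may be smaller than the full depth of sequencing. Levels are given as normalized CPM, which are counts relative to library totals scaled by edgeR's TMM factors. A level of 3 counts, taken as the floor of detection, was between 0.624 and 0.931 normalized CPM, and both the floor and the counting intervals reflect counting error alone, as reads copied by amplification do not stand for separate molecules. Levels are compared between libraries and not between genes, since the lengths of the counted gene models are not given in the sources used here.

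The antizyme inhibitor AZIN1 had its lower levels in S1 and S2 and its higher levels in C1 and C2. It lies on chromosome 4 of the pig assembly Sscrofa11.1, from 34221368 to 34257261, in the RefSeq annotation. It had 3615 counts in C1, 2487 in C2, 1690 in S1 and 2693 in S2. After scaling these were 780.0 and 699.7 normalized CPM for C1 and C2, and 524.7 and 560.5 normalized CPM for S1 and S2. The scaled levels of the groups did not overlap, although the raw count of S2 was above that of C2, whose total was smaller.

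The mean level of AZIN1 was 739.9 ± 56.8 normalized CPM in controls and 542.6 ± 25.3 in SIRT6-inhibited oocytes (SD, n = 2 libraries each). The fitted log2 fold change was -0.45 with a standard error of 0.13 and a 95% interval from -0.77 to -0.13, which is a fold of 0.733. By exact Poisson counting intervals, the lowest level that the counts of C2 allowed was 672.4 normalized CPM, and the highest that S2 allowed was 582.1. These values describe a gene selected for its difference and support nothing. In bulk libraries, fewer cells with the transcript and less transcript per cell cannot be told apart.

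**Figure D1:**
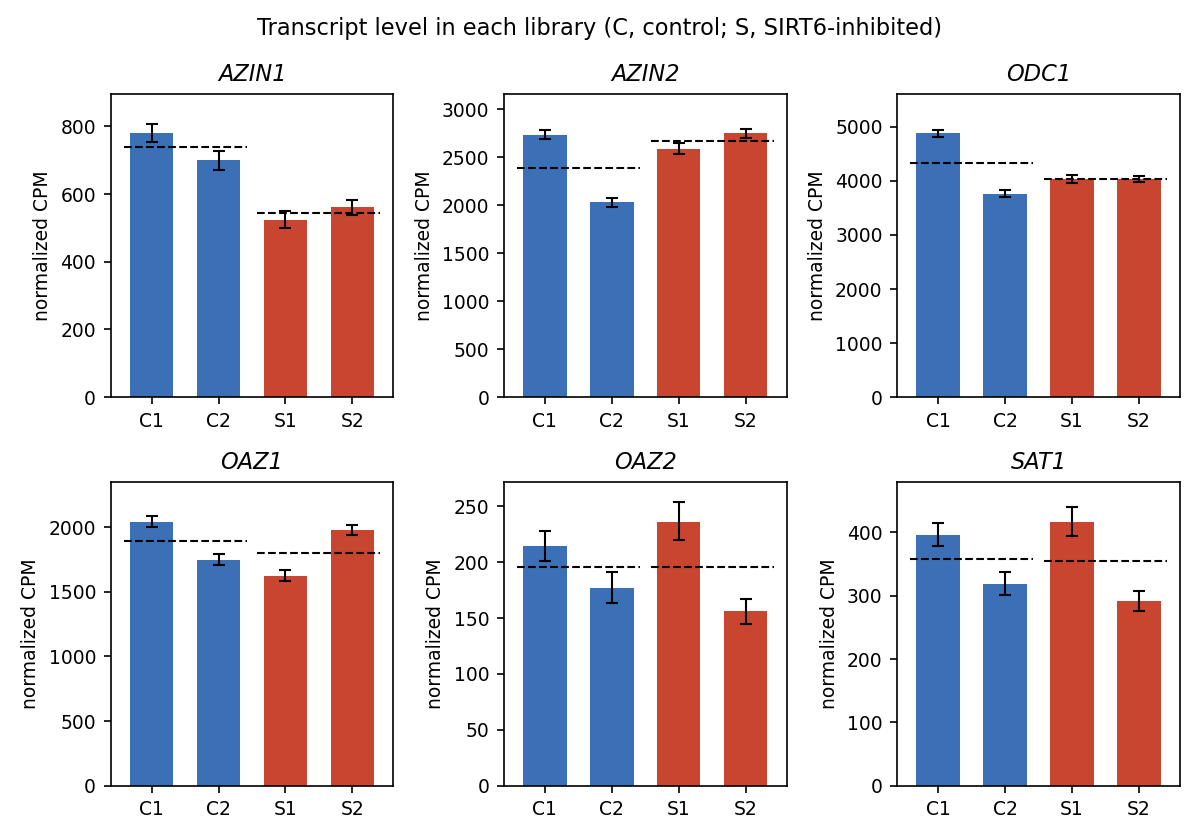
Level of 6 polyamine genes in each library, in normalized CPM, with control libraries (C1, C2) in blue and SIRT6-inhibited libraries (S1, S2) in red. Error bars are exact 95% Poisson intervals of the counts, dashed lines are group means, and the libraries of the groups are separate for AZIN1, from 699.7 to 780.0 against 524.7 to 560.5, and overlap for the other genes.

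A lack of overlap was common across the table and sets the background for that of AZIN1. Of 2387 tested genes, 958 (40.1%) had libraries that did not overlap between the groups, 530 of them lower and 428 higher with the inhibitor. Groups of 2 libraries often separate where levels do not differ, so this is not a count of changed genes. Leaving out any library leaves 2 against 1, where separation is easier, and the count was then 1728 without C1, 1633 without C2, 1803 without S1 and 1756 without S2. With 2 libraries a group, no exact permutation test can reach 0.05, and none was used. Since AZIN1 was selected on this contrast, nothing is read from its place among the 958 genes.

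Ornithine decarboxylase itself did not separate the groups. ODC1 had 22632 counts in C1, 13377 in C2, 12999 in S1 and 19409 in S2. Its levels were 4883 and 3763 normalized CPM in the controls and 4036 and 4040 with the inhibitor, so that S1 and S2 both lay between the controls. The log2 fold change was -0.10 (SE 0.14, 95% interval -0.43 to 0.23), with an adjusted p of 0.977 in edgeR's quasi-likelihood test. The lower bound of this interval was close to the value fitted for AZIN1, -0.45. Without C1 the log2 fold change was 0.093. ODC1 is annotated on chromosome 3, from 126087013 to 126095644.

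The antizymes, which AZIN1 binds, overlapped between the groups as well. OAZ1, on chromosome 2 from 76293142 to 76296626, had 2043 and 1747 normalized CPM in C1 and C2 and 1625 and 1978 in S1 and S2. Its lowest level was in S1 and its highest in C1, and its log2 fold change was -0.07 (SE 0.14, 95% interval -0.41 to 0.27, edgeR adjusted p = 0.980). The sign turned without C1 (0.036) and without S1 (0.058).

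OAZ2, on chromosome 1 from 107325225 to 107338475, had 214.5 and 177.0 normalized CPM in the controls and 236.3 and 155.9 with the inhibitor. S1 was thus the highest and S2 the lowest of the 4 libraries, with both controls between them. The group means were 195.7 ± 26.5 and 196.1 ± 56.8 normalized CPM (SD, n = 2 each), and the log2 fold change was 0.00 (SE 0.27, 95% interval -0.64 to 0.64, edgeR adjusted p = 1.00). Its sign was negative with library totals only (-0.050), without the 10 most abundant genes (-0.0037), without C2 (-0.13) and without S1 (-0.33), so no direction is given for OAZ2.

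SAT1, the acetyltransferase of polyamine breakdown, showed the same arrangement of libraries as OAZ2. On chromosome X from 19908037 to 19910553, it had 396.6 and 319.0 normalized CPM in C1 and C2 and 417.0 and 291.2 in S1 and S2. S1 and S2 again lay on either side of the controls. The log2 fold change was -0.02 (SE 0.23, 95% interval -0.56 to 0.52, edgeR adjusted p = 0.995). Its sign turned with RLE normalization (0.0031), without C1 (0.14) and without S2 (0.22).

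Of the 4 listed genes besides AZIN1, 0 passed an adjusted p of 0.05, against 0 of 2387 genes (0%) in the whole table by edgeR's quasi-likelihood test, whose lowest adjusted p was 0.460. An unadjusted p under 0.05 was found for 216 of the 2387 genes (9.05%) and for 0 of these 4. The number of adjusted calls in the table depended on the tool and the libraries. DESeq2's Wald test gave 37 and limma-voom 0, and edgeR gave 77 without S1, 25 without S2, 1 without C2 and 0 without C1. In the fits without S1 and without S2 the prior degrees of freedom were infinite, so every gene took the shared spread and its own spread was not used. The unadjusted count was 111 without C2. ODC1, OAZ1, OAZ2 and SAT1 did not pass adjustment in any of the 13 settings in which they were examined, which do not include the crossed pairing of replicate numbers. A p above the threshold does not show that levels were equal, and the intervals of OAZ2 and SAT1 include the value fitted for AZIN1.

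**Figure D2:**
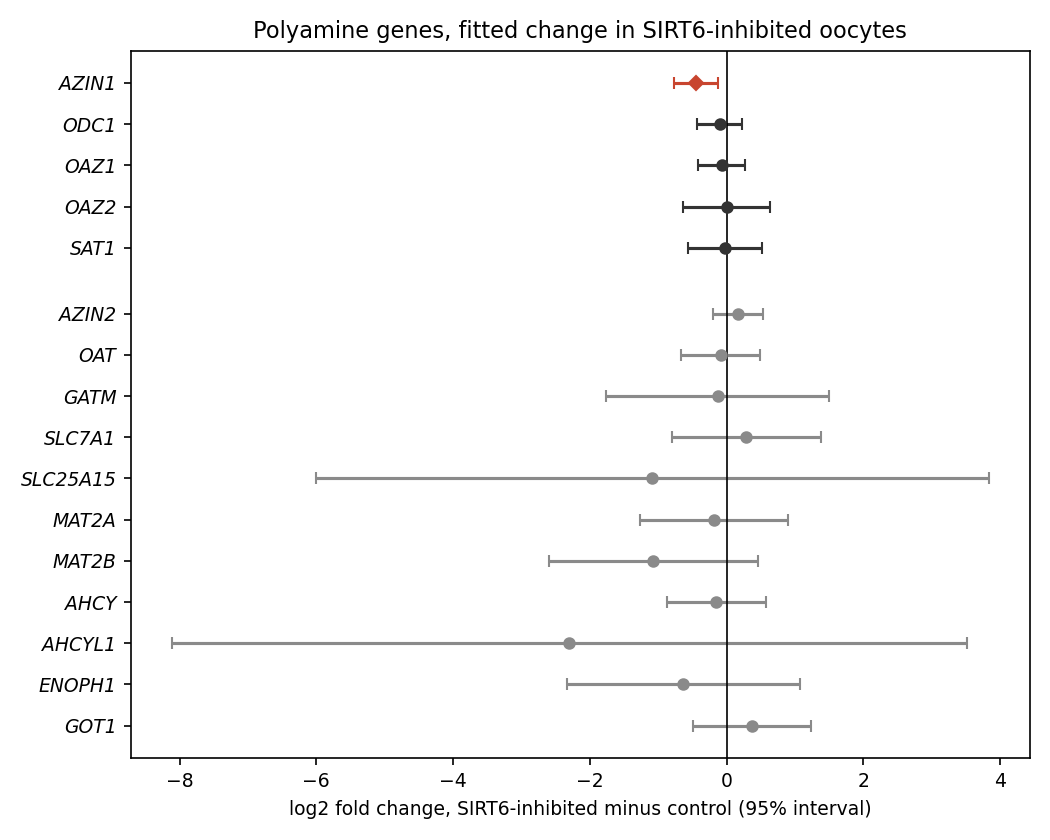
Fitted log2 fold change, SIRT6-inhibited minus control, with 95% intervals for the tested genes among those named by the rule (upper block, AZIN1 as a diamond) and of the wider polyamine list (lower block), 2 libraries per group. AZIN1, selected on these values, is drawn for its size alone, and nothing is read from where its interval lies. The intervals drawn for the other genes include 0. SAT2 and ADI1, with 0 counts in both SIRT6-inhibited libraries, are not drawn because a fitted fold change has no fixed size there.

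Ratios of counts within a library do not depend on how libraries are scaled, and the length of each gene cancels when the ratio is compared between libraries. The ratio of AZIN1 to ODC1 was 0.160 in C1, 0.186 in C2, 0.130 in S1 and 0.139 in S2. Relative to OAZ1, the antizyme transcript, AZIN1 stood at 0.382 and 0.401 in the controls and at 0.323 and 0.283 with the inhibitor. Both ratios were lower in S1 and S2 than in C1 and C2, and their group means stood at 0.778 and 0.775 of the control mean. As AZIN1 enters each ratio, these values describe the same selected difference.

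The ratios to OAZ2 and SAT1 were separated by a narrow margin. AZIN1 to OAZ2 was 3.64 and 3.95 in the controls and 2.22 and 3.60 with the inhibitor, and AZIN1 to SAT1 was 1.97 and 2.19 against 1.26 and 1.92. S2 was thus close to C1 in both ratios, and most of the difference lay in S1. Without that library the group ratio was 0.947 for OAZ2 and 0.925 for SAT1. The ratio of ODC1 to OAZ1, which does not contain AZIN1, was 2.39 in C1, 2.15 in C2, 2.48 in S1 and 2.04 in S2, and the groups overlapped.

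**Figure D3:**
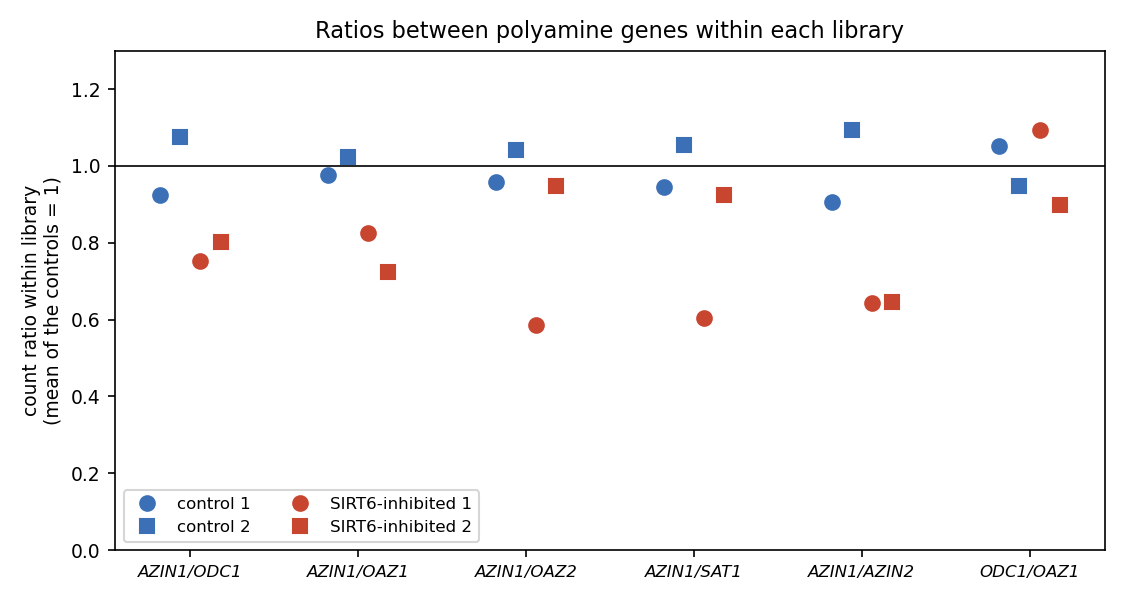
Ratio of counts between pairs of polyamine genes within each library, divided by the mean of the control libraries, with controls in blue and SIRT6-inhibited libraries in red (circles, library 1; squares, library 2). Every ratio with AZIN1 is lower in S1 and S2 than in C1 and C2, by a narrow margin for OAZ2 and SAT1, while the ratio of ODC1 to OAZ1 overlaps between the groups.

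AZIN2, the other antizyme inhibitor, did not share the pattern of AZIN1. Its levels were 2733 and 2030 normalized CPM in C1 and C2 and 2587 and 2750 in S1 and S2, and the groups overlapped. The log2 fold change was 0.16 (SE 0.15, 95% interval -0.20 to 0.53, edgeR adjusted p = 0.927), and it was -0.039 without C2 and 0.39 without C1. The ratio of AZIN1 to AZIN2 was 0.285 and 0.345 in the controls and 0.203 and 0.204 with the inhibitor. The difference between the responses of AZIN1 and AZIN2 was not tested, because AZIN1 was selected on its values. OAZ3, the antizyme of male germ cells, had 0 counts in all 4 libraries.

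A wider list of 53 polyamine genes was examined by role, of which 24 were listed, 5 had 0 counts in every library and 13 were tested. Adjusted calls were 0 in either direction, as in the whole table. SAT2, ADI1 and AHCYL1 had passed the filter on low counts through the control libraries alone, so a lower level was built into them, and nothing is read from their tests. Of the other 10 genes, 0 had an unadjusted p under 0.05 and 4 had groups that did not overlap, against 9.05% and 40.1% of all tested genes, so lack of overlap was about as frequent as in the whole table. Their median log2 fold change was -0.14, with 7 lower and 3 higher, and that of all 13 was -0.18, also with SAT2 and ADI1 at the bound that the floor sets. Over all 2387 genes the median was -0.04, and 1261 were lower. None of the list's members for hypusination of eIF5A, a modification made from spermidine, was analysed here.

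In catabolism, SAT2 and SMOX had counts in C1 and C2 and none in S1 and S2. SAT2, a relative of SAT1, had 18 counts in C1, 39 in C2 and 0 in S1 and S2. Against the highest floor of S1 and S2, 0.931 normalized CPM, this was at least 7.97-fold lower by the mean of the controls and at least 4.17-fold lower by the lower control. SMOX, spermine oxidase, had 9 counts in C1 and 25 in C2, at least 4.82-fold lower by the mean and 2.08-fold by the lower control, and it was below the filter for testing. ADI1, of the methionine salvage pathway that recycles the by-product of spermidine and spermine synthesis, had 12 and 19 counts against 0 and 0, at least 4.26-fold lower by the mean and 2.78-fold by the lower control. These bounds take in counting error alone. SLC25A15 had 33 counts in S1 and 0 in S2, so a count of 0 may not fix how low a level was. Counts in both controls and none in either SIRT6-inhibited library were found for 93 of the 2923 genes with any count (3.18%). The opposite was found for 6 (0.205%). In the wider list, with 24 genes listed and 5 of them at 0 counts in every library, these numbers were 3 and 0. The detected genes numbered 2411 and 2689 in the controls and 2277 and 2320 with the inhibitor, and the part of this difference in the 3 genes was not tested.

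Among genes that supply S-adenosylmethionine, the donor of aminopropyl groups after decarboxylation, MAT2A and MAT2B differed in how their libraries lay. MAT2A, a catalytic subunit of methionine adenosyltransferase, had 91.5 and 135.3 normalized CPM in the controls and 141.3 and 59.3 with the inhibitor, so S1 was the highest and S2 the lowest, and its log2 fold change of -0.18 turned without C2 (0.13) and without S2 (0.32). MAT2B, its regulatory subunit, had 48.1 and 27.0 normalized CPM in the controls and 20.2 and 15.6 with the inhibitor, without overlap. The log2 fold change of MAT2B was -1.07 (SE 0.64, 95% interval -2.60 to 0.46), with an edgeR adjusted p of 0.724. It was -0.60 without C1. ENOPH1, another enzyme of methionine salvage, had 28.5 and 22.8 normalized CPM against 16.5 and 16.7, also without overlap, and a log2 fold change of -0.63 (SE 0.71, edgeR adjusted p = 0.956). GOT1, an aminotransferase, had 45.1 and 56.0 normalized CPM in the controls and 66.8 and 64.1 with the inhibitor (log2 fold change 0.37, SE 0.36, edgeR adjusted p = 0.934), and its log2 fold change was 0.22 without C1. AHCY had a log2 fold change of -0.15, which was 0.24 without C2. AHCYL1 had 33 counts in C1, 9 in C2, 0 in S1 and 9 in S2. The fitted log2 fold change of AHCYL1 was -2.30, and it was -1.36 without S1 and -7.21 without S2. It was -3.22 with a replicate block and -3.01 with limma-voom, so it had no fixed size.

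The genes of ornithine and arginine supply did not pass the test either. OAT, ornithine aminotransferase, had 165.3 and 206.2 normalized CPM in the controls and 154.0 and 196.7 with the inhibitor, and the groups overlapped. Its log2 fold change was -0.08, and it was positive without C2 (0.081) and without S1 (0.079). SLC7A1, which imports arginine and other cationic amino acids, had 43.4 and 32.6 normalized CPM against 49.4 and 43.7, with S2 just above C1 (log2 fold change 0.29, SE 0.46, edgeR adjusted p = 0.980). Its log2 fold change was 0.50 without C1 and 0.097 without C2. GATM and SLC25A15 had log2 fold changes of -0.13 and -1.09 with standard errors of 0.68 and 2.06, and that of GATM was 0.16 without C1. SLC25A15 had 0 counts in S2, and its log2 fold change was -8.56 without S1, -0.083 without S2, -3.19 with a replicate block and -3.94 with limma-voom, so no size is given for it. Of the genes of polyamine transport none was tested. Members seen in a single library lay in both groups, with 16 counts of CAV1 and 6 of OTC in C2, 16 of GNMT and 8 of BHMT in S2, and 4 of MAT1A in S1.

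The genes whose pattern over the 4 libraries was most like that of AZIN1 came from outside the polyamine pathway. Likeness was the root mean square difference between log2 normalized CPM, each gene centred on its own mean, so a value of 0 is an identical pattern. The 5 closest of 2386 genes were RPL22 (0.0234), SDC2 (0.0307), DPY30 (0.0370), SUOX (0.0462) and RPL15 (0.0474), where the median over all of them was 0.471. RPL22 and RPL15 encode proteins of the large ribosomal subunit, SDC2 a cell surface proteoglycan, DPY30 a subunit of histone H3K4 methyltransferase complexes and SUOX the mitochondrial sulfite oxidase. Ribosomal protein genes have many near-identical copies, so the counts of RPL22 and RPL15 are uncertain where reads could be split between copies.

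All 5 followed AZIN1 in level by construction. DPY30, for example, had 941.7 and 787.7 normalized CPM in the controls and 611.7 and 642.8 with the inhibitor, and RPL22 had 98.0 and 90.3 against 64.9 and 69.7. Of the tested polyamine genes ENOPH1 was nearest, at place 42 with a difference of 0.107. OAZ1 and ODC1 stood at places 202 and 203, with differences of 0.198 and 0.199. A gene that varies little over the 4 libraries is near AZIN1 by this measure, so nothing is read from these places. SAT1, AZIN2 and OAZ2 stood at places 644, 730 and 733, and the remaining polyamine genes between places 389 (GATM) and 2244 (SLC25A15).

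**Figure D4:**
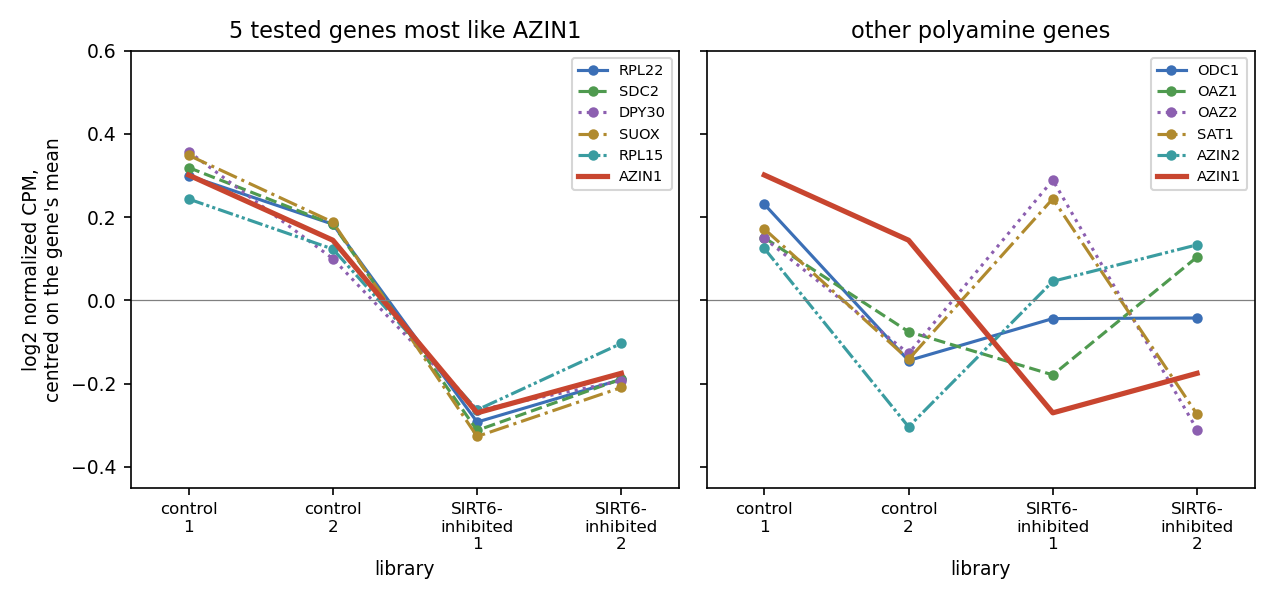
Centred log2 normalized CPM in the 4 libraries for AZIN1 (thick red line) with the 5 tested genes most like it (left) and with the other polyamine genes (right); lines join the libraries to guide the eye and imply no order. On the left each gene is above its mean in both controls and below it in both SIRT6-inhibited libraries, and on the right OAZ2 and SAT1 are highest in S1, where AZIN1 is lowest.

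Markers of the oocyte and of the surrounding somatic cells were read in the same libraries. Of 22 oocyte genes 14 were listed, and all 14 had counts in every library, with between 22.8% and 24.5% of all counts. DNMT1 alone made up between 76.9% and 79.5% of that sum, and without it the level was 50277 and 54267 normalized CPM in C1 and C2 and 50141 and 50033 in S1 and S2. Of the 14 genes 2 (GDF9 and ZP2) were lower and 1 (DNMT1) was higher without overlap, against 40.1% of all tested genes without overlap. An unadjusted p under 0.05 was found for 2 of the 14, against 9.05% of all tested genes, and 0 passed adjustment. GDF9, a growth factor secreted by the oocyte, had 1322 and 2986 normalized CPM in C1 and C2 and 977.1 and 392.8 in S1 and S2, and its log2 fold change was -1.65 (SE 0.50, edgeR adjusted p = 0.469). With the replicate block the edgeR adjusted p of GDF9 was 0.0040, and it also passed adjustment without a filter on low counts, without S1 and without S2, where the shared spread alone was used. Its log2 fold change was -2.13 without C1, -0.95 without C2, -2.46 without S1 and -1.14 without S2. ZP2, of the zona pellucida, had 3707 and 4327 normalized CPM against 3417 and 2784 (log2 fold change -0.37, SE 0.14, edgeR adjusted p = 0.510), with a log2 fold change between -0.53 and -0.24 when each library was left out.

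Of 30 cumulus and granulosa genes 25 were listed, and 14, 13, 8 and 13 had counts in C1, C2, S1 and S2. Their summed level was 311.2, 308.9, 136.3 and 287.9 normalized CPM in that order. VCAN was the most abundant in each library, and without it the sums were 228.5, 172.5, 97.5 and 145.7. Both with and without VCAN, the sums of S1 and S2 lay below those of C1 and C2. Of the 12 tested genes 6 were lower and 1 was higher without overlap, where 40.1% of all tested genes did not overlap, 530 lower and 428 higher. PTGS2, 1 of the 6, had passed the filter on low counts through the controls alone, so its direction was built in. An unadjusted p under 0.05 was found for 0 of the 12, and nothing is read from their number. TNFAIP6, FSHR, LHCGR, AMH, AMHR2, KRT8 and HSD17B1 had 0 counts throughout. The part of these marker levels in the difference in AZIN1 was not tested.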

How the data were processed

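The values deposited by the authors are unnormalized counts of reads on each gene symbol in 4 libraries of M II oocytes. The submitters' processing notes name TopHat2 2.0.13, Cufflinks 2.2.1, Cuffnorm, Cuffdiff and the builds mm10 and susScr11, with no role for any of them; the counting tool, annotation and strand setting are not given in the sources used here. Of the 4381 symbols 4299 (98.1%) matched the RefSeq annotation of Sscrofa11.1 (susScr11), which gave the coordinates.

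Counts were analysed with R 4.3.3 and edgeR 4.0.16. Genes were kept by filterByExpr (minimum count 10, minimum total 15), scaled by TMM factors between 0.966 and 1.04, and compared between groups with the quasi-likelihood test without a block, with Benjamini-Hochberg adjustment over all 2387 tested genes. The standard error is the log2 fold change over the square root of F. Likeness used a prior count of 0.5. The steps were tested on simulated data. Alternatives were DESeq2 1.42.0, limma-voom (limma 3.58.1), other scalings (RLE, upper quartile, totals alone, totals without the 10 most abundant genes), other filters, a replicate block and leaving out each library.

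Every listed gene of the rule was named, and of the wider list each gene that passed the filter; other members of that list, and single markers, were named after their values were seen. The result of 1 member of that list is not reported here. The genes most like AZIN1 were the 5 with the smallest root mean square difference. The members and lists were chosen with earlier results of these data known.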

Additional observations from a re-analysis of the deposited data

How the results depend on the processing

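The log2 fold change of AZIN1 was negative in all 13 settings run, and between -0.53 and -0.38 when each library was left out. AZIN1 was selected for a difference without overlap, so a negative sign when a library was left out was built in and supports nothing. The adjusted count of 0 genes became 43 without a filter on low counts, 2 with at least 10 counts in every library and 37 with DESeq2's Wald test. The prior degrees of freedom were infinite without the filter, so each gene's own spread was not used there. With the replicate block the count was 6, and 0 of the tested polyamine genes besides AZIN1 were called with it. The deviations of same-numbered libraries had a correlation of -0.112, and with the numbers crossed, a pairing added after seeing the data, 2 genes passed adjustment and 241 an unadjusted p of 0.05.

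Leaving out each library gave between 0 and 77 adjusted calls, between 111 and 302 unadjusted ones and between 1633 and 1803 genes without overlap, where groups of 2 and 1 separate more easily. The lone library is then assumed to vary like the other group. AZIN1 relative to OAZ2 was between 0.585 and 0.947 of the control ratio, and relative to SAT1 between 0.605 and 0.925; these were added after seeing the data. Log2 fold changes were between -0.28 and 0.093 for ODC1, -0.22 and 0.058 for OAZ1, -0.33 and 0.27 for OAZ2, -0.30 and 0.22 for SAT1, -0.039 and 0.39 for AZIN2, -0.27 and 0.081 for OAT, -0.38 and 0.16 for GATM, -0.94 and 0.32 for MAT2A and -0.46 and 0.24 for AHCY.

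With all libraries, OAZ2 turned negative with library totals only (-0.050), without the 10 most abundant genes (-0.0037), without a filter (-0.0024), with the replicate block (-0.021) and with limma-voom (-0.088). SAT1 turned positive with RLE normalization (0.0031) and DESeq2 (0.0033). The cause of these changes was not tested. Counts per coding length were not run, as no coding lengths were at hand, and SAT2, SLC25A15, AHCYL1 and ADI1 had no value with at least 10 counts in every library, nor AHCYL1 without control library 1 or ADI1 without control library 2.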
